A study of Mus musculus with 12 samples.

Results

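Adrenergic and PACAP receptor signaling was described through 8 genes, Adcyap1r1, Adrb1, Adra1a, Adra1b, Adcy5, Adcy6, Grk5 and Gnas, out of the 22915 genes in the deposited table. They were taken by gene name. Adcyap1r1 was chosen by its fold change with oncostatin M (OSM), which was among the largest decreases in the table, so its values against the other conditions are given as a description without a test. The remaining 7 genes were listed by their role in the pathway, with results of these data already known. All 8 genes reached the minimum for testing, a value of 10 or more in 3 or more libraries.

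The study asked how cardiomyocytes respond when the leukemia inhibitory factor receptor (LIFR), the OSM receptor (OSMR) or both are engaged. Primary cardiomyocytes of adult male C57/Bl6 mice, 12 weeks old, were kept for 24 h in normoxia in serum-free medium with PBS, murine LIF (mLIF), murine OSM (mOSM) or a human-like OSM (hlOSM). The last is murine OSM that carries the AB loop of the human protein. In mouse cells mLIF acts on LIFR, mOSM on OSMR and hlOSM on both receptors. The cytokines were given at 25 ng/ml according to the sample descriptions, whereas the study's methods state a slightly lower concentration. Each condition has 3 libraries, 12 in all, and the study's methods speak of biological replicates without saying whether these were separate animals or preparations. The p-values measure the spread between these libraries as deposited. That spread holds almost no difference between replicate numbers, so the p-values are likely too small where the number is not fitted.

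Library totals lay between 2745748 and 2911891 normalized counts, which are not read numbers, and the sequencing depth of single genes is therefore unknown. Cardiomyocyte markers were present in every library, with sums over 7 genes (Myh6, Actc1, Tnnt2, Tnni3, Myl2, Pln and Ryr2) between 11327 and 16252 normalized counts. Transcripts of other cell types were measured as well, with sums of 1847 to 2597 for 6 fibroblast genes, 916 to 1268 for 5 endothelial genes, 299 to 813 for 5 smooth muscle and pericyte genes and 123 to 252 for 5 leukocyte genes. In these bulk samples, fewer cells of a type and less RNA per cell cannot be told apart.

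Noradrenaline and adrenaline reach the cardiomyocyte through beta and alpha1 receptors. The beta1 receptor, encoded by Adrb1, couples to the stimulatory G protein whose alpha subunit comes from Gnas, and this activates the adenylyl cyclases encoded by Adcy5 and Adcy6, the isoforms best known from the heart. Their product, cyclic AMP (cAMP), activates protein kinase A, which phosphorylates calcium channels, ryanodine receptors and phospholamban and so makes the beat faster and stronger. The alpha1 receptors of Adra1a and Adra1b instead signal through Gq and phospholipase C, and PAC1, encoded by Adcyap1r1, binds the neuropeptide PACAP and raises cAMP through the same stimulatory G protein. Grk5 encodes a kinase that phosphorylates active receptors and thereby uncouples them.

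The genes lie apart from each other on mm10, with only Adrb1 and Grk5 on the same chromosome. Adcyap1r1 (ENSMUSG00000029778) spans chr6:55451978-55501451 on the plus strand, Adrb1 (ENSMUSG00000035283) chr19:56722199-56733113, Adra1a (ENSMUSG00000045875) chr14:66635251-66771168 and Adra1b (ENSMUSG00000050541) chr11:43774606-43901210 on the minus strand. Adcy5 (ENSMUSG00000022840) lies at chr16:35154877-35305738, Adcy6 (ENSMUSG00000022994) at chr15:98589973-98610076 on the minus strand, Grk5 (ENSMUSG00000003228) at chr19:60889749-61095968 and Gnas (ENSMUSG00000027523) at chr2:174284320-174346744. Genes on the opposite strand cover 8.92% of the exonic bases of Adcy6 (Gm29331) and 21.96% of those of Gnas (Nespas and Gm20721). Reads that fell on several genes were left out of the counts. The strand setting of the counting is not given in the sources used here.

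The 250 bases before a RefSeq transcription start are shown for 3 of these genes, because their levels moved in different ways: the receptor with the largest difference, the receptor that stayed near its PBS level, and a cyclase with an intermediate one. The windows come from RefSeq on GRCm38.p6 and are Adcyap1r1 chr6:55451728-55451977, Adrb1 chr19:56721867-56722116 and Adcy5 chr16:35154614-35154863, all on the plus strand. Capitals mark GC boxes (GGGCGG or CCGCCC) and, in Adrb1 at 90 bases before the start, the short form of a cAMP response element (TGACG).

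Adcyap1r1: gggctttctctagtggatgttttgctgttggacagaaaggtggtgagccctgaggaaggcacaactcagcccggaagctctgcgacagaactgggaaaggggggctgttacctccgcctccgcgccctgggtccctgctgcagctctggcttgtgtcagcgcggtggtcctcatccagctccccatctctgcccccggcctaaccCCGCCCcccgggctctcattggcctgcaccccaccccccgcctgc

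Adrb1: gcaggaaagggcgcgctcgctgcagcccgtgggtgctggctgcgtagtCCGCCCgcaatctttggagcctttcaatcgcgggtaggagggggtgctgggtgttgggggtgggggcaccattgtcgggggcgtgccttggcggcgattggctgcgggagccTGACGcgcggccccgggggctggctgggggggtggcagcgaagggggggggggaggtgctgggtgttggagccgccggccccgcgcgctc

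Adcy5: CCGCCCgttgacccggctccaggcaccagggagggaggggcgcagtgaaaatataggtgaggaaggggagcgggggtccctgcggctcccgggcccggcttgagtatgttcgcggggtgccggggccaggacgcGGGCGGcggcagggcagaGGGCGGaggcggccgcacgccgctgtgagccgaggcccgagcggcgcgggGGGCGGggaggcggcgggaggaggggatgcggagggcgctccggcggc

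All 3 windows were rich in G and C, at 65.6% in Adcyap1r1, 74.0% in Adrb1 and 78.0% in Adcy5, against a median of 52.4% over 32851 mouse promoter windows of this length. A GC box stood once in Adcyap1r1, at 45 bases before the start, once in Adrb1, at 202 bases, and 4 times in Adcy5, at 250, 116, 98 and 48 bases. GC boxes were found in 32.7% of all windows. The table held windows for 6 of the 8 genes (Adcy5, Adcyap1r1, Adra1b, Adrb1, Gnas and Grk5), 10 windows in all since Adra1b and Gnas have several starts. The motif TTCNNNGAA, which STAT factors recognise, was in 0 of these 10 windows and in 7.02% of all windows, and the complete cAMP response element TGACGTCA was in 0 of 10 and in 1.55%. The short form of that element (TGACG or CGTCA) was in 4 of 10 windows, 1 of Adrb1 and 3 of Gnas, and in 17.8% of all. A TATA box (TATAAA or TTTATA) was in 3 of 10, all of Gnas, and in 12.4% of all. Of the Gnas windows 2 overlap, so that a single TATA box and a single short element are each counted in both. Both strands were searched, the short form can lie inside a complete element, and a match or its absence describes these letters only.

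Adcyap1r1 had normalized counts of 106, 126 and 122 with PBS and of 116, 96 and 109 with mLIF. With mOSM the libraries held 14, 16 and 17, and with hlOSM 16, 14 and 14. The 6 libraries with an OSM thus lay far below the 6 without, with no overlap, while PBS and mLIF overlapped. The mean was 118 ± 10.6 (SD, n = 3) with PBS, 107 ± 10.1 with mLIF, 15.7 ± 1.53 with mOSM and 14.7 ± 1.15 with hlOSM.

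On the scale of log2(normalized count + 1), Adcyap1r1 was lower by 2.84 (SE 0.14) with mOSM than with PBS, or 7.14-fold, and by 2.92 or 7.59-fold with hlOSM. The difference between mLIF and PBS was −0.14, with a 95% interval from −0.431 to 0.15. These values chose the gene and are a description. Among all 13184 genes tested, its difference was the 11th largest decrease with mOSM and the 7th with hlOSM. Among the 8670 genes with a mean of at least 50, it stood second with mOSM, after Aldh1a1 (−2.90), and first with hlOSM, ahead of Aldh1a1 (−2.78). The choice did not use the comparison of both OSMs, but it used their libraries. That comparison gave −0.09 (95% interval −0.378 to 0.203, limma adjusted p = 0.935), so no difference between hlOSM and mOSM was detected for Adcyap1r1. As the gene was chosen for being low with OSM, this cannot show that the OSMs act alike on it.

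**Figure D1:**
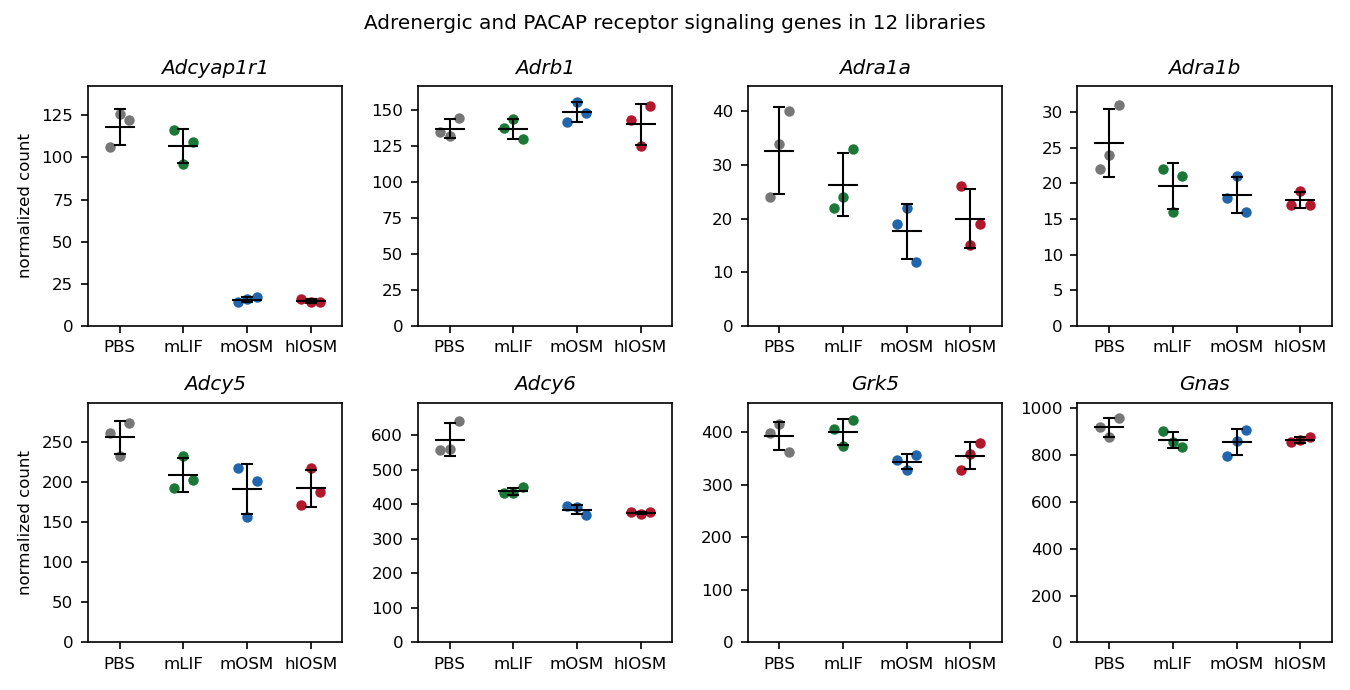
Normalized counts of the 8 genes (vertical axis, from 0) in the 4 conditions, with a point per library in the order of replicate numbers, and the mean ± SD of 3 libraries as a bar. Adcyap1r1 lies at 14 to 17 in the 6 OSM libraries and at 96 to 126 in the others, while Adrb1 lies between 125 and 156 in all 12.

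Adrb1, the main beta receptor of cardiomyocytes, stayed close to its level in PBS. Its libraries held 135, 132 and 145 normalized counts under PBS, 138, 144 and 130 under mLIF, 142, 156 and 148 under mOSM, and 143, 125 and 153 under hlOSM. The 4 conditions overlapped. Log2 fold changes against PBS were −9.9e-05 with mLIF (95% interval −0.18 to 0.179), 0.11 with mOSM (−0.0658 to 0.293) and 0.03 with hlOSM (−0.152 to 0.207), and none passed the threshold (limma adjusted p = 1, 0.344 and 0.832). The intervals leave room for changes of up to 0.293 on the log2 scale.

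Adra1a, which encodes the alpha1A receptor, fell with mOSM and with hlOSM. It was a low transcript, with 24, 34 and 40 in PBS, 22, 24 and 33 in mLIF, 19, 22 and 12 in mOSM and 26, 15 and 19 in hlOSM. The mOSM libraries all lay below those with PBS, whereas those with hlOSM overlapped them. The log2 fold change was −0.86 (SE 0.25, limma adjusted p = 0.0101) with mOSM, −0.68 (adjusted p = 0.0327) with hlOSM and −0.29 (adjusted p = 0.488) with mLIF. The call with hlOSM ended without the filter on low values (adjusted p = 0.0542), with a block for the replicate number (0.0612), and in 4 of 12 fits that left out a library (PBS 2 or 3, hlOSM 2 or 3), with adjusted p up to 0.149. Without PBS replicate 3 or mOSM replicate 3, the call with mOSM ended too (adjusted p = 0.062 and 0.0691).

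Adra1b, the alpha1B receptor gene, had 22, 24 and 31 in PBS, 22, 16 and 21 in mLIF, 18, 21 and 16 in mOSM, and 17, 19 and 17 in hlOSM. All OSM libraries lay below all PBS libraries, yet no log2 fold change passed the test, with −0.37 for mLIF (limma adjusted p = 0.265), −0.46 for mOSM (0.0916) and −0.50 for hlOSM (0.0552). Without PBS replicate 1 the last was −0.60, with an adjusted p of 0.0478. The differences of both alpha1 receptors between hlOSM and mOSM had wide intervals, from −0.336 to 0.689 for Adra1a and from −0.465 to 0.376 for Adra1b.

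Other receptors for the same ligands were close to the floor of the table. Adra1d had normalized counts of 0 to 2, and the genes for the VIP and PACAP receptors Vipr1 and Vipr2 0 to 6 and 0 to 3. None of the 7 listed adrenergic and VIP receptors in the table passed the filter on low values, nor did any of 3 genes for ligands or their synthesis. Adcyap1 and Vip, the ligand genes of PAC1, were looked for by name but were not among the genes of the table. Per kilobase of exon, Adrb1 made up 72.1% of the summed adrenergic receptor level in PBS, 76.0% under mLIF, 81.7% under mOSM and 77.3% under hlOSM. The summed level itself was 56.3 ± 2.95 (SD, n = 3) in PBS and 53.5 to 53.9 in the others, whose libraries overlapped PBS.

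Gnas, which gives the alpha subunit of the stimulatory G protein and other imprinted transcripts of its locus, had 920, 878 and 958 in PBS and 904, 858 and 835 in mLIF. It had 798, 862 and 907 under mOSM and 855, 863 and 878 under hlOSM, so that all conditions overlapped PBS, hlOSM only at its top value of 878. Log2 fold changes against PBS of −0.09, −0.10 and −0.09 for mLIF, mOSM and hlOSM (SE 0.06) did not pass the test, with limma adjusted p of 0.344, 0.166 and 0.239. Without mOSM replicate 3, the value with mOSM was −0.15 and passed (adjusted p = 0.0429). A gene-level count cannot separate the transcripts of this locus.

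Adcy6 fell with all 3 cytokines, each time with the smallest adjusted p among the 7 genes tested against PBS. It held 557, 561 and 642 in PBS, 433, 432 and 449 in mLIF, 394, 392 and 369 in mOSM, and 377, 372 and 377 in hlOSM. All cytokine libraries lay below all PBS libraries, and all OSM libraries below those with mLIF. The log2 fold change against PBS was −0.42 with mLIF (limma adjusted p = 0.000179), −0.60 with mOSM (8.55e-08) and −0.64 with hlOSM (2.57e-08), each with an SE of 0.06. These calls held in all 20 alternatives.

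The level of Adcy6 was lower with the OSMs than with mLIF. The log2 difference was −0.22 for hlOSM against mLIF (limma adjusted p = 0.0133), which ended only without mLIF replicate 3 (0.0586). For mOSM against mLIF it was −0.19 (adjusted p = 0.0484), a call that held in 8 of 20 alternatives, with adjusted p from 0.026 to 0.157, and that ended without any of the libraries other than PBS 3 and hlOSM 3. Between hlOSM and mOSM it was −0.04 (95% interval −0.162 to 0.0898, adjusted p = 0.94). The interaction, hlOSM minus mOSM against mLIF minus PBS, asks whether the step from mOSM to hlOSM differs from that from PBS to mLIF. As hlOSM and mOSM are different proteins, the first step need not reflect LIFR engagement alone. For Adcy6 the interaction was 0.38 (95% interval 0.204 to 0.56), unadjusted p = 0.000202 and adjusted p = 0.0727 in limma, and so did not pass. It passed without PBS replicate 1 (0.0361) and without hlOSM replicate 3 (0.0426).

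Adcy5, the other major cardiac cyclase, fell with both OSMs. Normalized counts were 261, 233 and 273 under PBS, 192, 233 and 203 under mLIF, 217, 156 and 201 under mOSM, and 171, 217 and 188 under hlOSM. The OSM libraries did not overlap PBS, while the highest mLIF library equalled the lowest PBS library. Log2 fold changes were −0.43 with mOSM and −0.42 with hlOSM (SE 0.11, limma adjusted p = 0.00403 and 0.00409), and both held in all 20 alternatives. With mLIF the value was −0.29 (adjusted p = 0.0916). It passed without mOSM replicate 2 (0.0431) and when only PBS and mLIF were fitted (0.0276). A difference of Adcy5 from mLIF was detected with neither OSM, at −0.14 for mOSM (95% interval −0.361 to 0.0853) and −0.13 for hlOSM (−0.35 to 0.0971).

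**Figure D2:**
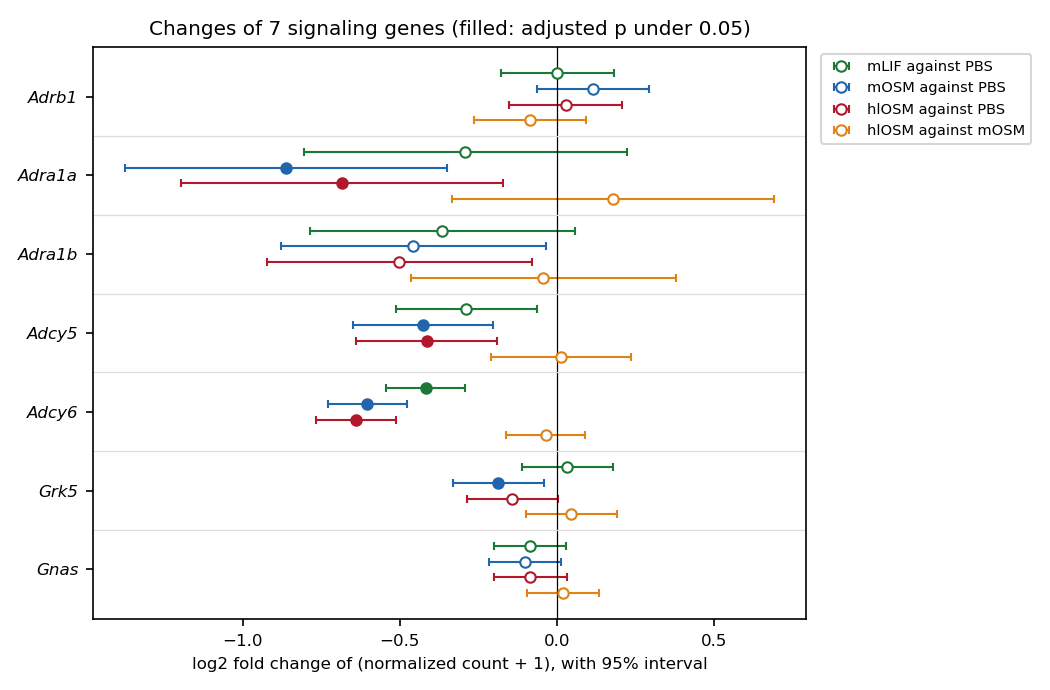
Log2 fold changes of 7 genes (horizontal axis, log2 of normalized count + 1, with 95% intervals) in 4 comparisons (the 3 cytokines against PBS, and both OSMs against each other), with filled points for an adjusted p under 0.05 in limma. Adcy6 is filled for all 3 cytokines, Adcy5 and Adra1a for both OSMs and Grk5 for mOSM, and all points of hlOSM against mOSM are open.

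Grk5, the receptor kinase gene, held 399, 416 and 363 in PBS, 407, 374 and 423 in mLIF, 348, 328 and 357 in mOSM, and 328, 359 and 380 in hlOSM. The mOSM libraries lay below those of PBS and mLIF, and the hlOSM libraries overlapped both. The log2 fold change with mOSM was −0.19 (SE 0.07, limma adjusted p = 0.045) and held in 10 of 20 alternatives, with adjusted p from 0.0193 to 0.184. With hlOSM it was −0.14 (adjusted p = 0.114) and with mLIF 0.03 (adjusted p = 0.819). Grk5 was also lower with mOSM than with mLIF, by −0.22 (adjusted p = 0.0429, past the threshold in 11 of 20 alternatives). Both calls ended with the replicate block (adjusted p = 0.0762 and 0.081), without the filter on low values (0.0692 and 0.0678) and with trimmed-mean rescaling (0.0536 and 0.0525), and the first also when only PBS and mOSM were fitted (0.0554). They depended on single libraries as well: the first ended without any of PBS 1 or 2, mLIF 1, mOSM 1 or 2, or hlOSM 2, with adjusted p of 0.0527 to 0.184, and the second without any of PBS 1, mLIF 1 or 3, mOSM 1 or 2, or hlOSM 2, with 0.0502 to 0.181.

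Of the 7 genes other than Adcyap1r1, 1 fell with mLIF, where 9.91% of all genes tested passed (4.44% lower). With mOSM 4 of 7 fell, against 31.2% of all genes past the threshold (15.8% lower), and with hlOSM 3 of 7, against 37.9% (19.8% lower). None rose. When the replicate number was fitted as a block, 1, 3 and 2 of 7 passed, beside 5.95%, 25.3% and 31.2% of all genes. Libraries of different replicate number barely differ on average, and the fit without the block still counts the degrees of freedom between those numbers. Libraries did not overlap PBS in 1 of 7 genes with mLIF, 5 of 7 with mOSM and 3 of 7 with hlOSM, where this held for 30.3%, 40.1% and 47.0% of all genes. The median log2 fold change of the 7 genes was −0.29, −0.43 and −0.42 for mLIF, mOSM and hlOSM, beside 0.00037, −0.0043 and −0.0052 over all genes. The 3 comparisons share their PBS libraries.

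Against mLIF, 2 of 7 were lower with mOSM (11.8% of all genes passed, 5.76% lower) and 1 of 7 with hlOSM (16.6%, 9.22% lower), or 0 and 1 with the block (8.81% and 12.2% of all genes). In hlOSM against mOSM 0 of 8 passed in limma, beside 0.106% of all genes, and 0 of 8 had an unadjusted p under 0.05, beside 7.49%. In the interaction 0 of 8 passed in limma, beside 0.167% of all genes, and 1 of 8, Adcy6, had an unadjusted p under 0.05, beside 11.5%. The counts out of 8 include Adcyap1r1, whose OSM libraries took part in its choice.

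Per kilobase of exon, Adcy6 and Gnas were the most abundant of the 8 genes in PBS, at 86.5 ± 7.07 and 82.1 ± 3.58 (SD, n = 3) normalized counts, and their libraries overlapped. Grk5 followed at 55.7 ± 3.84, Adrb1 at 40.6 ± 2.01, Adcy5 at 35.6 ± 2.86, Adcyap1r1 at 17.9 ± 1.6, Adra1b at 7.59 ± 1.4 and Adra1a at 3.74 ± 0.926, none overlapping the next. Adcyap1r1 thus stood at place 6 in PBS and also in mLIF, at 16.2 ± 1.54. With mOSM it was at place 7 with 2.37 ± 0.231 and with hlOSM last with 2.22 ± 0.175, in both cases overlapping Adra1a. Adrb1 came directly before Adcy5 in all 4 conditions, while Gnas was first and Adcy6 second in the 3 cytokine conditions. The divisor was the length of all annotated exons of a gene, 11.19 kb for Gnas, whichever transcripts the cells make. The order of genes, such as that of Adcy6 and Gnas, depends on this length.

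Of 161 further genes of the pathway, on lists written with earlier results of these data known, 125 passed the filter on low values. With mLIF 8 were higher and 18 lower, with mOSM 21 and 44, and with hlOSM 20 and 46. This is 20.8%, 52.0% and 52.8% of those tested, beside 9.91%, 31.2% and 37.9% of all genes (higher in 5.47%, 15.4% and 18.2%, lower in 4.44%, 15.8% and 19.8%). Their median log2 fold change was −0.08, −0.09 and −0.13. The shares of all genes given here are also the reference for the counts of each list and of the cell type markers below. In hlOSM against mOSM 0 of 125 passed in limma. The number for mLIF rested on single libraries, with 9 genes in all without mLIF replicate 3, 11 without PBS replicate 3 and 16 without mLIF replicate 2.

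Receptors that couple to the inhibitory G protein moved in both directions. Chrm2, the muscarinic M2 receptor gene, held 893 to 984 in PBS, 658 to 739 in mLIF, 454 to 535 in mOSM and 385 to 420 in hlOSM, with no overlap between any of them. Its log2 fold change against PBS was −0.42 (limma adjusted p = 0.00042), −0.97 (2.86e-10) and −1.23 (3.83e-12), with an SE of 0.07. Adora1, the adenosine A1 receptor gene, changed by −0.50, −0.81 and −1.14 (SE 0.10), with 20.09% of its exonic bases covered by Mybph on the other strand. Of 13 other cardiac G protein-coupled receptors tested, 1 rose and 2 fell with mLIF, 6 rose and 3 fell with mOSM, and 4 rose and 4 fell with hlOSM. Aplnr, the apelin receptor gene, rose from 10 to 16 in PBS to 20 to 26 in mLIF, 73 to 74 in mOSM and 53 to 80 in hlOSM, with log2 fold changes of 0.78, 2.40 and 2.32 (SE 0.18; limma adjusted p = 0.00909, 1.47e-09 and 1.48e-09). S1pr1, a sphingosine 1-phosphate receptor gene, rose by 0.86 and 0.67 with mOSM and hlOSM (SE 0.11), and the low transcript Ptger3, for a prostaglandin E receptor, by 1.89 with mOSM (SE 0.63; limma adjusted p = 0.0264). Aplnr, S1pr1 and Ptger3 were chosen after their values were seen. With each OSM 4 of 5 endothelial markers rose as well, and the part of endothelial cells in these receptor values was not tested.

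Most G protein subunits did not pass the test. Of 19 tested, 1 rose with mLIF, 4 rose and 1 fell with mOSM, and 5 rose and 2 fell with hlOSM. These shares, 5.26%, 26.3% and 36.8%, lay below or near the 9.91%, 31.2% and 37.9% of all genes. The list also holds Ric8a and Ric8b, which do not encode subunits. Gnai3, an inhibitory alpha subunit gene, rose from 213 to 228 in PBS to 291 to 318 in mOSM and 269 to 333 in hlOSM, by 0.48 and 0.45 on the log2 scale (SE 0.07, limma adjusted p = 3.02e-05 and 4.43e-05). Its value with mLIF was 0.23 (adjusted p = 0.0541). Gnai2, Gnaq and Gna11 passed with no cytokine.

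Of 6 further adenylyl cyclases tested, 1 fell with mLIF, and 1 rose and 3 fell with each OSM. The gene that fell with mLIF was Adcy8, chosen after its values were seen, at −0.47 (limma adjusted p = 0.0221, or 0.0671 with the replicate block). Its means were 86.7 in PBS and 62.3 under mLIF, and lower still under mOSM (54.0) and hlOSM (38.7), so mLIF gave its smallest change. Adcy9 fell by −0.30 with mOSM and −0.37 with hlOSM on the log2 scale (SE 0.07, limma adjusted p = 0.00169 and 0.000176). Adcy7 was at 79 to 92 in PBS and 66 to 107 in mLIF, but at 38 to 44 in mOSM and 41 to 51 in hlOSM, a log2 fold change of −1.04 and −0.94 (SE 0.15). Adcy4 rose from 43 to 53 in PBS to 72 to 89 in mOSM and 64 to 79 in hlOSM, by 0.72 and 0.57 (SE 0.12). Adcy3 did not pass.

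Summed over the 10 cyclase genes per kilobase of exon, the level was 239 ± 13.2 (SD, n = 3) in PBS, 204 ± 5.20 under mLIF, 181 ± 8.61 under mOSM and 173 ± 4.74 under hlOSM. The libraries of each cytokine lay below those of PBS, with an exact two-sided permutation p of 0.1, the smallest that 3 against 3 libraries allow. Adcy6 made up 36.1% of this sum in PBS and 31.7%, 31.4% and 32.0% with mLIF, mOSM and hlOSM, while Adcy5 kept to between 14.3% and 15.4%.

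Phosphodiesterases, which degrade cAMP, moved in opposite directions. Of 12 genes on that list tested, 1 rose and 5 fell with mLIF, and 1 rose and 7 fell with each OSM. The 12 include Pde4dip, which encodes a protein that interacts with a phosphodiesterase and not such an enzyme. The gene that rose was Pde4b in each case, from 366 to 417 in PBS to 543 to 569 in mLIF, 779 to 825 in mOSM and 873 to 979 in hlOSM. No libraries overlapped, and the log2 fold changes were 0.52, 1.05 and 1.24 (SE 0.06, limma adjusted p = 1.73e-05, 9.29e-12 and 5.65e-13). Pde4d, of the same family, fell by −0.32, −0.67 and −0.70 (SE 0.09), and Pde3a, the cGMP-inhibited enzyme gene, by −0.28, −0.56 and −0.57 (SE 0.07). Pde2a was below the filter.

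Within family 4, Pde4b made up 44.9% ± 2.92 (SD, n = 3) of the summed level per kilobase in PBS, 59.3% ± 1.22 under mLIF, 72.4% ± 2.07 under mOSM and 75.9% ± 1.61 under hlOSM. The share of Pde4d was 26.5%, 19.5%, 13.0% and 11.7%. The size of these shares depends on the length used, which takes in all annotated exons of each gene. The sum of the family was 82.5 ± 5.32 in PBS, 89.3 ± 3.46 under mLIF, 105 ± 1.29 under mOSM and 115 ± 4.70 under hlOSM, and both OSMs lay above PBS without overlap (exact permutation p = 0.1, the smallest possible).

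**Figure D3:**
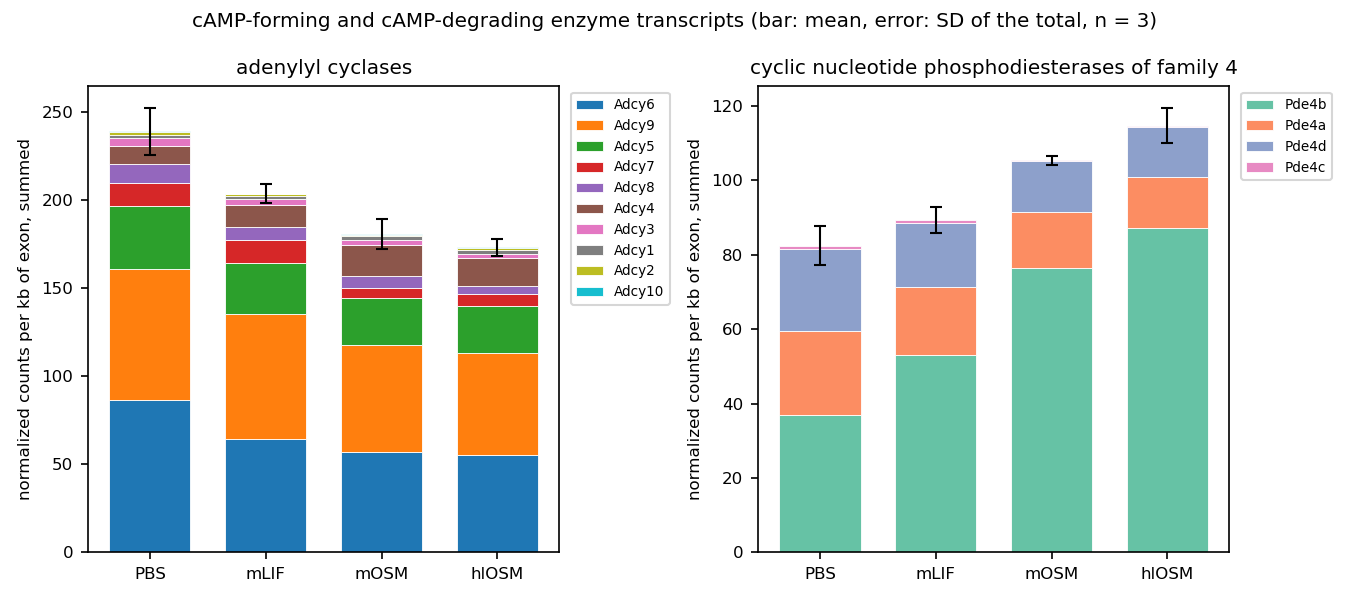
Normalized counts per kilobase of exon (vertical axis), stacked by gene, for adenylyl cyclases (left) and phosphodiesterases of family 4 (right) in the 4 conditions, with means of 3 libraries and the SD of the sum as error bar. The cyclase sum goes from 239 in PBS to 173 in hlOSM, and the Pde4b part grows from 44.9% to 75.9% of its family.

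Downstream of cAMP, Prkar2b, a regulatory subunit gene of protein kinase A, was at 69 to 77 in PBS and 62 to 90 in mLIF, against 18 to 29 in mOSM and 23 to 33 in hlOSM. Its log2 fold change was −1.68 with mOSM and −1.38 with hlOSM (SE 0.18, limma adjusted p = 1.57e-07 and 1.85e-06) and −0.01 with mLIF (adjusted p = 0.981). The catalytic subunit gene Prkaca fell less, by −0.18 (adjusted p = 0.042, or 0.0745 with the replicate block) and −0.23 (0.00936), and Prkar1a did not pass. Prkar2a passed only with hlOSM, at 0.13, and not with the replicate block. Akap6, the gene of an anchor protein of the nuclear envelope and sarcoplasmic reticulum, changed by −0.18, −0.27 and −0.30 (SE 0.05). On the list of protein kinase A, its anchors and EPAC, 23 were tested, of which 2 rose and 2 fell with mLIF, 1 rose and 11 fell with mOSM, and 3 rose and 10 fell with hlOSM.

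Of the 11 effectors of the beta-adrenergic response tested, 7 fell and 1 rose with each cytokine, and their median log2 fold changes were −0.21, −0.30 and −0.32 for mLIF, mOSM and hlOSM. The gene that rose was Hcn4, for a pacemaker channel that cAMP opens, named after its values were seen. It went from 40 to 62 in PBS to 102 to 104 in mLIF, 127 to 151 in mOSM and 165 to 197 in hlOSM, with log2 fold changes of 1.07, 1.51 and 1.85 (SE 0.12; limma adjusted p = 1.73e-05, 3.39e-09 and 1.07e-10). Cacna1c, the L-type calcium channel gene, held 1236 to 1355 in PBS, 1089 to 1145 in mLIF, 808 to 895 in mOSM and 713 to 773 in hlOSM, with log2 fold changes of −0.21, −0.58 and −0.78 (SE 0.06). Pln, which encodes phospholamban, changed by −0.24, −0.54 and −0.56 (SE 0.07), with Cep85l and Gm47644 covering 64.7% of its exonic bases on the other strand. Ryr2, the ryanodine receptor gene, changed by −0.16, −0.30 and −0.32 (SE 0.05). The mLIF calls of Pln, Ryr2 and Akap6 ended with the replicate block (adjusted p = 0.0575, 0.067 and 0.0592). Pln, Ryr2 and Tnni3 are on the cardiomyocyte marker list too, and the sum of that list was 14638 to 16252 in PBS, 12453 to 13869 in mLIF, 11327 to 13277 in mOSM and 11800 to 12165 in hlOSM.

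**Figure D4:**
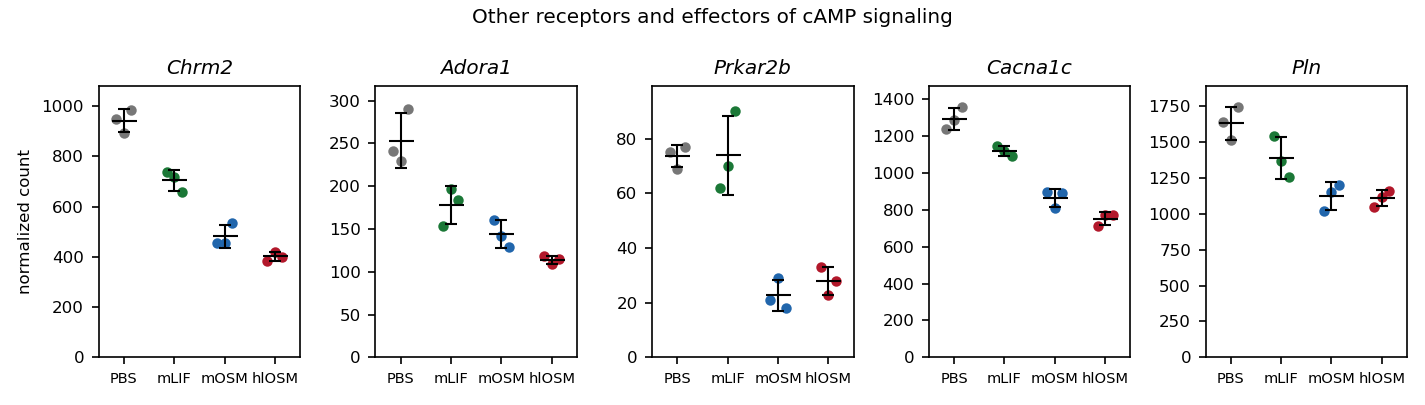
Normalized counts (vertical axes, from 0) of Chrm2, Adora1, Prkar2b, Cacna1c and Pln in the 4 conditions, with a point per library and the mean ± SD of 3 libraries. Prkar2b is at 62 to 90 in PBS and mLIF and at 18 to 33 with the OSMs, while Chrm2 steps down from 893 to 984 in PBS through mLIF and mOSM to 385 to 420 in hlOSM.

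Desensitization genes other than Grk5 were mixed, with 1 of 16 rising with mLIF, 3 rising and 4 falling with mOSM, and 2 rising and 4 falling with hlOSM. That is 6.25%, 43.75% and 37.5%, beside 9.91%, 31.2% and 37.9% of all genes. Arrb1, the beta-arrestin 1 gene, rose by 0.31 with mOSM (SE 0.09, limma adjusted p = 0.00873), and Rgs5, which speeds up the shutdown of Gi and Gq, fell by −0.63 and −0.79 with mOSM and hlOSM (SE 0.14). Rgs5 is at the same time a pericyte marker. Grk2, Grk6, Arrb2 and Rgs2 did not pass. Per kilobase, Grk5 made up 32.7% of the receptor kinase sum in PBS, 31.1% under mLIF, 29.1% under mOSM and 28.6% under hlOSM.

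Among 13 genes of the alpha1 branch, 1 fell with mLIF, 2 rose and 5 fell with mOSM, and 2 rose and 4 fell with hlOSM. These were 7.69%, 53.85% and 46.15% of the list, beside 9.91%, 31.2% and 37.9% of all genes. Plcb1, a phospholipase C gene, rose by 0.42 (limma adjusted p = 0.021, or 0.0612 with the replicate block) and 0.51 (0.00486) with mOSM and hlOSM. The protein kinase C genes Prkca and Prkce fell by −0.29 and −0.20 with mOSM and by −0.23 and −0.26 with hlOSM (SE 0.07), where the Prkce call with mOSM ended with the replicate block (adjusted p = 0.0602). Of 12 genes of cAMP-responsive transcription, 1 rose with mLIF, 2 rose and 3 fell with mOSM, and 1 rose and 5 fell with hlOSM. Crem, a transcription factor gene that cAMP induces, rose by 0.44, 0.63 and 0.57 (SE 0.12), the first only without the replicate block (adjusted p = 0.0235, or 0.0672 with it). Nr4a1 and Nr4a3, nuclear receptor genes that cAMP also induces and that were chosen after their values were seen, fell with both OSMs. Their log2 fold changes were −0.47 and −0.52 with mOSM (limma adjusted p = 0.00499 and 0.000457) and −0.69 and −0.67 with hlOSM (0.00012 and 2.01e-05). Creb1 fell by −0.21 with mOSM and −0.17 with hlOSM (SE 0.07), the latter not with the replicate block (adjusted p = 0.0766).

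Genes whose pattern was most like that of Adcyap1r1 were ranked by the root mean square difference of their log2 values, each relative to its own PBS mean, over the 12 libraries and 8670 genes with a mean of at least 50. Aldh1a1, a retinaldehyde dehydrogenase gene, was nearest at 0.238, with 206 to 258 in PBS, 163 to 178 in mLIF, 26 to 31 in mOSM and 27 to 39 in hlOSM. Thbs2 (0.555), Adamtsl3 (0.557) and Anxa1 (0.571) were also among the nearest. Thbs2, for a matricellular protein, went from 222 to 281 in PBS and 215 to 243 in mLIF to 50 to 64 in mOSM and 53 to 55 in hlOSM. The ranking is a description and shares the libraries that chose Adcyap1r1.

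The marker lists of other cell types moved between the conditions as well. Smooth muscle and pericyte markers summed to 604 to 813 in PBS, 545 to 614 in mLIF, 309 to 369 in mOSM and 299 to 322 in hlOSM, and 5 of 5 (Acta2, Myh11, Tagln, Rgs5 and Pdgfrb) fell with each OSM and 0 of 5 with mLIF. The means have the same order of conditions as those of Adcyap1r1, with a smaller difference in the sum. For Adcyap1r1 the PBS and mLIF libraries overlapped, as did those of both OSMs. The cardiomyocyte sum had this order too, with means of 15380, 13190, 12140 and 11930 for PBS, mLIF, mOSM and hlOSM. Within the smooth muscle and pericyte list, Myh11 went from 25 to 42 in PBS to 4 to 8 in mOSM and 10 in hlOSM, and Pdgfrb from 194 to 243 to 118 to 160 and 126 to 139. Among fibroblast markers 2 of 6 rose and 2 fell with mOSM, and 3 rose and 3 fell with hlOSM, and their sum was 1982 to 2216 in PBS and 2079 to 2597 in the OSMs. Endothelial markers rose in 4 of 5 with each OSM, from a sum of 922 to 971 in PBS to 1151 to 1268. Leukocyte markers summed to 123 to 136 in PBS and 175 to 252 in the OSMs, with 1 of 4 tested higher, namely Cd68. Markers of Schwann cells and neurons summed to 32 to 44 in PBS and 13 to 27 in the OSMs, with Sox10, S100b and Dbh under 10 in every library. Cardiomyocyte markers fell in 5 of 7 with mLIF and 6 of 7 with each OSM. The part of these cells in the values of Adcyap1r1, Adra1a, Adra1b, Adcy5, Adcy6 and Grk5 was not tested. Nor was it tested for the further pathway genes, such as Aplnr, S1pr1 and Adcy4.

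**Figure D5:**
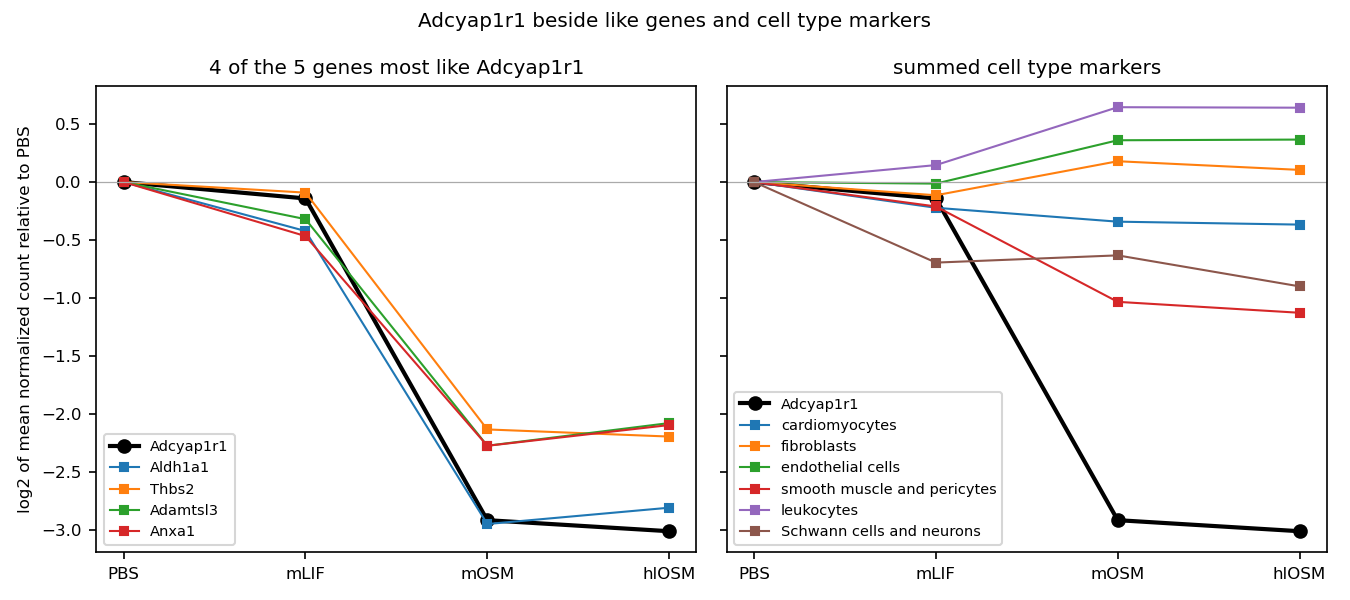
Log2 of the mean normalized count of 3 libraries relative to PBS (vertical axis) across the 4 conditions (horizontal axis) for Adcyap1r1, with 4 of the 5 genes most like it (left) and with the summed markers of 6 cell type lists (right). Adcyap1r1 and Aldh1a1 lie lowest on the left, and on the right no summed list comes down as far as Adcyap1r1, the nearest being smooth muscle and pericytes at 309 to 369 in mOSM and 299 to 322 in hlOSM against 604 to 813 in PBS.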

How the data were processed

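RNA of mouse primary cardiomyocytes was sequenced in 12 libraries, 3 for each of PBS, mLIF, mOSM and hlOSM, grouped by sample title. Per the labels and the study's methods, the authors aligned trimmed reads with STAR 2.7.7a (mm10, Ensembl release 101), assigned them to genes with featureCounts 1.6.5 and normalized the counts. The deposited values are scores, normalized counts rounded to whole numbers. The normalization method is not given in the sources used here, and read-count models and counting intervals were not used. Tests were run with limma 3.58.1 (lmFit, eBayes with trend) in R 4.3.3 on log2(value + 1), all 12 libraries in a fit, for 13184 genes with at least 10 in at least 3 libraries, two-sided, at a Benjamini-Hochberg adjusted p under 0.05. The test was checked on simulated data. Sums and shares per kilobase of exon used Python 3.11.15 with pandas 2.3.3, and 3 against 3 sums an exact permutation test. The length was that of all annotated exons of a gene, merged. Levels and shares compared between genes therefore depend on exons that may not be used in these cells.

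The 8 genes, the lists and the marker genes were chosen with earlier results of these data known. Named are the 8 genes, 1 to 6 genes of each list whatever their change, and the 5 genes most like Adcyap1r1. Not every gene so chosen is reported here. As alternatives, the pseudocount was set to 0.5 or 5, the filter was dropped or raised to 50, values were rescaled by trimmed means or quantiles, only the compared conditions were fitted, a replicate block was added, and each library was left out.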

Additional observations from a re-analysis of the deposited data

How the results depend on the processing

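The count of genes past the threshold, out of the 7 other than Adcyap1r1, was 1 in mLIF against PBS and 2 when only PBS and mLIF were fitted, and ranged from 1 to 2 over fits that left out a library. For mOSM against PBS the range was 3 to 4, for hlOSM against PBS 2 to 4, for mOSM against mLIF 0 to 2 and for hlOSM against mLIF 0 to 2. For all 8 genes it was 0 to 0 in hlOSM against mOSM and 0 to 1 in the interaction. In mOSM against mLIF the count of 2 became 0 without the filter on low values, 1 with trimmed-mean rescaling and 0 with the replicate block. Of 125 pathway genes, 9 to 29 passed with mLIF, 59 to 70 with mOSM, 57 to 72 with hlOSM and 0 to 0 in hlOSM against mOSM when a library was left out. The cause of these shifts was not tested.

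Of 1098 values of the 8 genes under alternatives, 1046 stayed as they were. This means the same side of the threshold, or for untested differences of Adcyap1r1 a value within the spread between replicates. Another 40 no longer passed, 8 newly passed and 4 moved by more than that spread. Of the untested values and those that passed in either fit, 0 turned their direction. Values that passed in neither fit could change sign, such as Adrb1 with hlOSM against PBS (−0.037 to 0.1075). The 4 that moved were the log2 differences of Adcyap1r1 between an OSM and PBS or mLIF with a pseudocount of 5, for example −2.57 in place of −2.84. Of 2548 values of named pathway genes, 1 reversed, Ryr2 in mLIF against PBS, which was 1.8e-15 (adjusted p = 1) after quantile rescaling, since Ryr2 ranked at place 4 in each library of both conditions and that rescaling gives a rank the same value everywhere.

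Same-numbered libraries of different conditions did not deviate together, with correlations of their deviations from the condition means between −0.501 and 0.021 in 18 pairs, against −0.127 to 0.474 for other numbers. Over 6989 genes, the SD of the mean log2 difference between numbers 3 and 1 was 0.0021, and 0.0805 with shifted numbers, so the deposited values hold almost no difference between replicate numbers. A spread of this size between numbers by itself keeps same-numbered libraries from deviating together, so these correlations say nothing about whether they were prepared together. The fit without the block counts degrees of freedom between the numbers that carry almost no spread, so its p-values are likely too small. All 56 adjusted p-values of the 8 genes were as large or larger with the block. With the replicate block, 1, 3 and 2 of 7 genes passed with mLIF, mOSM and hlOSM against PBS, and 19, 59 and 60 of 125 pathway genes. The depth behind single libraries and genes is unknown, and low genes such as Adra1a and Adra1b have the widest intervals.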
